A study of Mus musculus with 75 samples.

Results

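The genes described here are 10 genes of cellular calcium transport, followed through 75 single cells of the mouse cochlea, out of 55291 genes in the deposited count table. They were 3 plasma membrane calcium pumps (Atp2b1, Atp2b2 and Atp2b4), 2 pumps of the endoplasmic reticulum (Atp2a2 and Atp2a3), 2 exchangers (Slc8a1 and Slc8b1), the mitochondrial uniporter Mcu, and 2 calcium release channels of the reticulum (Itpr2 and Itpr3). These 10 members were chosen by name as machinery that takes calcium out of the cytosol or releases it from stores. Earlier results of these data were known when they were chosen. Beside them, 47 further calcium handling genes were read. The count of each member was read in every cell of 5 groups.

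All cells came from C57BL/6 mice, carried a tamoxifen-inducible Cre, were labelled by Tdtomato, and were picked by hand one by one for Smart-Seq, which copies whole polyadenylated transcripts. The 17 WT_P30 OHCs were outer hair cells (OHCs), the electromotile receptor cells of the cochlea, from Slc26a5 CreER/+; Ai9/+ mice that received tamoxifen at P20 and P21. Their Cre sits in the locus of Slc26a5, which encodes the motor protein Prestin, and it is OHC-specific. The 16 WT_P60 SCs were adult supporting cells (SCs), the cells that surround and hold the hair cells, from Fgfr3-iCreER+; Ai9/+ mice given tamoxifen at P30 and P31, a line that labels primarily pillar cells and Deiters' cells. The other 42 cells were taken at P60 from mice with Fgfr3-iCreER+, a CAG-LSL-Atoh1+ transgene, the Rosa26 allele CAG-LSL-Ikzf2/+ and Slc26a5 DTR/+, in which tamoxifen at P30 and P31 switched on in SCs the hair cell factors Ikzf2 and Atoh1. Diphtheria toxin at P36 (20 ng/g) then removed most of the endogenous OHCs through the toxin receptor DTR. The study grouped these 42 cells by their Myo7a and Slc26a5 RNA into 11 OHC-like cells (both present), 16 nascent hair cells (nascent HCs, Myo7a only) and 15 SCs failing to become HCs (neither). Counts under that grouping were not all 0: Slc26a5 reached 1 CPM (1 count per 1000000) in 3 of 16 nascent HCs, at up to 15.7 CPM against a lowest value of 16.2 CPM in OHC-like cells. Myo7a likewise reached it in 3 of 15 SCs failing to become HCs, at up to 27.9 CPM against a lowest value of 91.2 CPM in nascent HCs. Mouse line, age, tamoxifen age and library run all coincide with cell type in WT_P30 OHCs against WT_P60 SCs, so their parts cannot be told apart. The 42 induced cells differed from both wild-type groups in transgenes, the Slc26a5 DTR allele, toxin treatment and library run. From WT_P30 OHCs they differed in age and tamoxifen age as well. In comparisons of induced with wild-type cells these parts likewise cannot be told apart. No source used here names the animal behind a cell, so each group counted as 1 sample, and the comparisons below are descriptions of these cells with no test between groups.

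Calcium enters hair cells through the transduction channels at the tips of their stereocilia and through voltage-gated channels at their base, and it must be pumped out or stored again. Plasma membrane calcium ATPases (PMCA, Atp2b genes) and the sodium/calcium exchanger encoded by Slc8a1 push calcium out of the cell, and the reticulum pumps (SERCA, Atp2a genes) load the stores. Inositol 1,4,5-trisphosphate (IP3) receptors (Itpr genes) release calcium from the stores, the release that underlies calcium waves between cochlear SCs, and Mcu carries calcium into mitochondria. Atp2b2, whose product PMCA2 is the pump of hair bundles, is a deafness gene in mouse and human.

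The store channel genes Itpr3 and Itpr2 and the pump gene Atp2b2 carry the main differences between the groups, so the 250 bases before an annotated start of each are shown here from RefSeq (build GRCm38.p6), 5′ to 3′ on the gene's own strand. Atoh1, one of the factors switched on in the 42 cells, belongs to the basic helix-loop-helix family, whose members bind the E-box CANNTG. Capitals mark each CANNTG, which reads the same on both strands. The Itpr3 window is chr17:27057054-27057303 (+), the Itpr2 window is chr6:146502224-146502473 (-), and the Atp2b2 window, 1 of 3 listed for that gene, is chr6:113934682-113934931 (-).
Itpr3: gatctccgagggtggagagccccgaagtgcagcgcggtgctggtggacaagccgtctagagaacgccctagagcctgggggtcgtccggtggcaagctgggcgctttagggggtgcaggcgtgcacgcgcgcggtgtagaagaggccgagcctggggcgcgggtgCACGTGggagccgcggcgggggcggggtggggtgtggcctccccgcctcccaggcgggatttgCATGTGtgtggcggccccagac
Itpr2: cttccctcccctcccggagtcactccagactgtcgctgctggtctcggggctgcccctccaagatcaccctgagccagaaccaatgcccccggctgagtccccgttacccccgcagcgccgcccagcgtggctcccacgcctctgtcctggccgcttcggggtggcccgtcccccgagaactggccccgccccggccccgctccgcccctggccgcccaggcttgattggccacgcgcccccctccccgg
Atp2b2: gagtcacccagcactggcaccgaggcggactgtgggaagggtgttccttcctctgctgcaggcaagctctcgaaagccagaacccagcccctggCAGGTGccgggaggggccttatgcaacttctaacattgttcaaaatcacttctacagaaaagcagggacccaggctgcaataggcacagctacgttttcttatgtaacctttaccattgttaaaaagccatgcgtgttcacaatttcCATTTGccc
The Itpr3 window held 2 such hexamers (CACGTG and CATGTG), the Itpr2 window held 0 and this Atp2b2 window held 2 (CAGGTG and CATTTG), while the other 2 windows of Atp2b2 held 0 and 1. The Atp2b2 window shown was thus the 1 of 3 with the most. A hexamer this short is common: CANNTG stood in 66.2% of 32851 promoters searched over the same 250 bases. The narrower forms CAGCTG and CAGATG, the latter on either strand, were searched as well. They stood in 13.0% and 14.4% of those promoters and in none of the windows listed for the members. A match describes these letters only and is no binding site. Of the 10 members, 8 had an entry, with 11 windows in all, and Atp2a2 and Slc8b1 had none.

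In the annotation of the same build, Itpr3 spans 27057304 to 27122223 on chromosome 17 and Itpr2 spans 146108299 to 146502223 on chromosome 6. Atp2b2 lies on chromosome 6 as well, at 113743831 to 114042613, and Atp2b1 lies on chromosome 10 at 98914406 to 99026143. Of the others, Atp2b4 lies on chromosome 1 (133699457 to 133801041), Atp2a2 and Slc8b1 on chromosome 5 (122453513 to 122502225 and 120511168 to 120534024), Mcu on chromosome 10 (59446984 to 59616692), Atp2a3 on chromosome 11 (72961169 to 72993044) and Slc8a1 on chromosome 17 (81373105 to 81738377). Reads were counted over exons, 9019 bases for Itpr3, 14802 for Itpr2, 12612 for Atp2b2 and 15218 for Atp2b1. Exons of an antisense gene, Itpr3os, cover 2.58% of the Itpr3 exons, and Itpr3os itself had 0 counts in every cell. Whether counting used strand is not given in the sources used here, so reads of the 1.57% of Slc8a1 exons and the 1.36% of Atp2a2 exons that other genes overlap cannot be assigned with certainty.

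Levels are given as CPM, the count of a gene scaled to 1000000 counts per cell, after scaling library sizes, and a gene was called detected in a cell at 1 CPM or more. Cells held 4264780 to 22934062 counts. WT_P30 OHCs had a median of 4777 detected genes, below the 6872 of WT_P60 SCs and the 8488 of OHC-like cells, and this smaller number stands beside every gene that OHCs lacked. Its part in those zeros was not tested. The labels of the endogenous cells matched the markers: 5 OHC markers (Slc26a5, Ocm, Myo7a, Tmc1 and Espn) summed to 11100 to 49714 CPM in OHCs and to at most 0.294 CPM in WT_P60 SCs, and 5 SC markers (Sox2, Sox10, Fgfr3, Gjb2 and Gjb6) summed to 1233 to 7721 CPM in WT_P60 SCs and at most 198 CPM in OHCs. OHC-like cells summed to 1140 to 7837 CPM for the first list and 161 to 655 CPM for the second. Genes within each list differed in OHC-like cells. Slc26a5, Myo7a and Espn were detected in 11 of 11, Ocm in 7 and Tmc1 in 2. Of the SC list, Fgfr3 was detected in 11 of 11 (mean 324 CPM) and Sox2 in 4 (11.1 CPM). Means of Sox10, Gjb2 and Gjb6 there were 0.184, 0.225 and 0.117 CPM. Nascent HCs, at 379 to 7911 CPM for the OHC list, overlapped OHC-like cells, as did SCs failing to become HCs, at 39.9 to 1551 CPM, where Espn was detected in 15 of 15 cells and Slc26a5 and Tmc1 in none. Of the marker lists of other cells, the macrophage genes reached at most 37.8 CPM, the neuron genes 197 CPM in an OHC with Prph in no OHC, and the hemoglobin genes 2740 CPM in OHC-like cell 2. The inner hair cell genes Slc17a8 and Slc7a14 together reached 101 CPM in OHC 17 and 74.9 CPM in nascent HC 2. Pecam1, an endothelial gene, took its list to a median of 19.8 CPM in WT_P60 SCs. Cldn5, the other gene of that list, was detected in 1 of 16 of them (mean 0.0885 CPM). Pdgfra took the fibroblast list to a median of 160 CPM in OHCs, with Col1a1 and Col3a1 detected in no OHC. The part of these cells in the results was not tested.

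The pump gene that separated these groups was Atp2b2. In WT_P30 OHCs its level ran from 278 through a median of 734 to 993 CPM, and all 17 cells had it. In OHC-like cells it ran from 0.289 through 244 to 655 CPM, with 10 of 11 cells detected. In nascent HCs the median was 58.8 CPM within 0 to 226 CPM, with 9 of 16 cells detected. The order thus ran from OHCs through OHC-like cells to nascent HCs, and few cells of the remaining groups had the gene: 4 of 15 SCs failing to become HCs, up to 74.2 CPM, and 2 of 16 WT_P60 SCs, up to 47.0 CPM. Only the step from OHCs to OHC-like cells exceeded the spread within groups, as the lower quartile of OHCs (638 CPM) lay above the upper quartile of OHC-like cells (314 CPM). The mean was 699 ± 206 CPM (SD, n = 17 cells) in OHCs and 259 ± 169 CPM (SD, n = 11 cells) in OHC-like cells, 2.70-fold lower, and the OHC-like cell was the higher one in 3.74% of cell pairs. Against the 5.79 CPM of WT_P60 SCs, the OHC mean was 121-fold higher with no overlap between cells, and the OHC-like mean was 44.7-fold higher with the OHC-like cell higher in 98.9% of pairs. The SC mean rested on a pair of cells: without WT_P60 SC 5 these ratios were 229 and 85.0, and without WT_P60 SC 9 they were 222 and 82.2. Nascent HCs stood 16.1-fold above WT_P60 SCs (30.6 without SC 5 and 29.6 without SC 9), and SCs failing to become HCs stood 1.64-fold above them, but 1.19-fold below without their cell 2. OHC-like cells stood 27.3-fold above SCs failing to become HCs (53.2 without cell 2 of the latter) and 2.78-fold above nascent HCs.

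Atp2b1, which encodes the widely expressed pump PMCA1, showed another order. It was detected in all 75 cells, lowest in OHCs at 1.67 to 504 CPM (median 171) and highest in OHC-like cells at 303 to 1031 CPM (median 531). WT_P60 SCs, at 140 to 857 CPM (median 336), nascent HCs, at 143 to 968 CPM (median 440), and SCs failing to become HCs, at 42.0 to 1254 CPM (median 393), lay between and overlapped widely. The mean was 179 ± 145 CPM (SD, n = 17 cells) in OHCs and 577 ± 223 CPM (SD, n = 11 cells) in OHC-like cells, 3.21-fold higher in the latter and higher in 95.7% of pairs. OHCs stood 2.11-fold below WT_P60 SCs. Neither ratio reached the 4-fold limit used throughout.

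Atp2b4, the gene of the pump PMCA4, reached 1 CPM in 0 of 75 cells. Its 6 counts in all were 5 in 1 OHC and 1 in 1 nascent HC. It was the only member too low in every group to enter the comparisons.

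**Figure D1:**
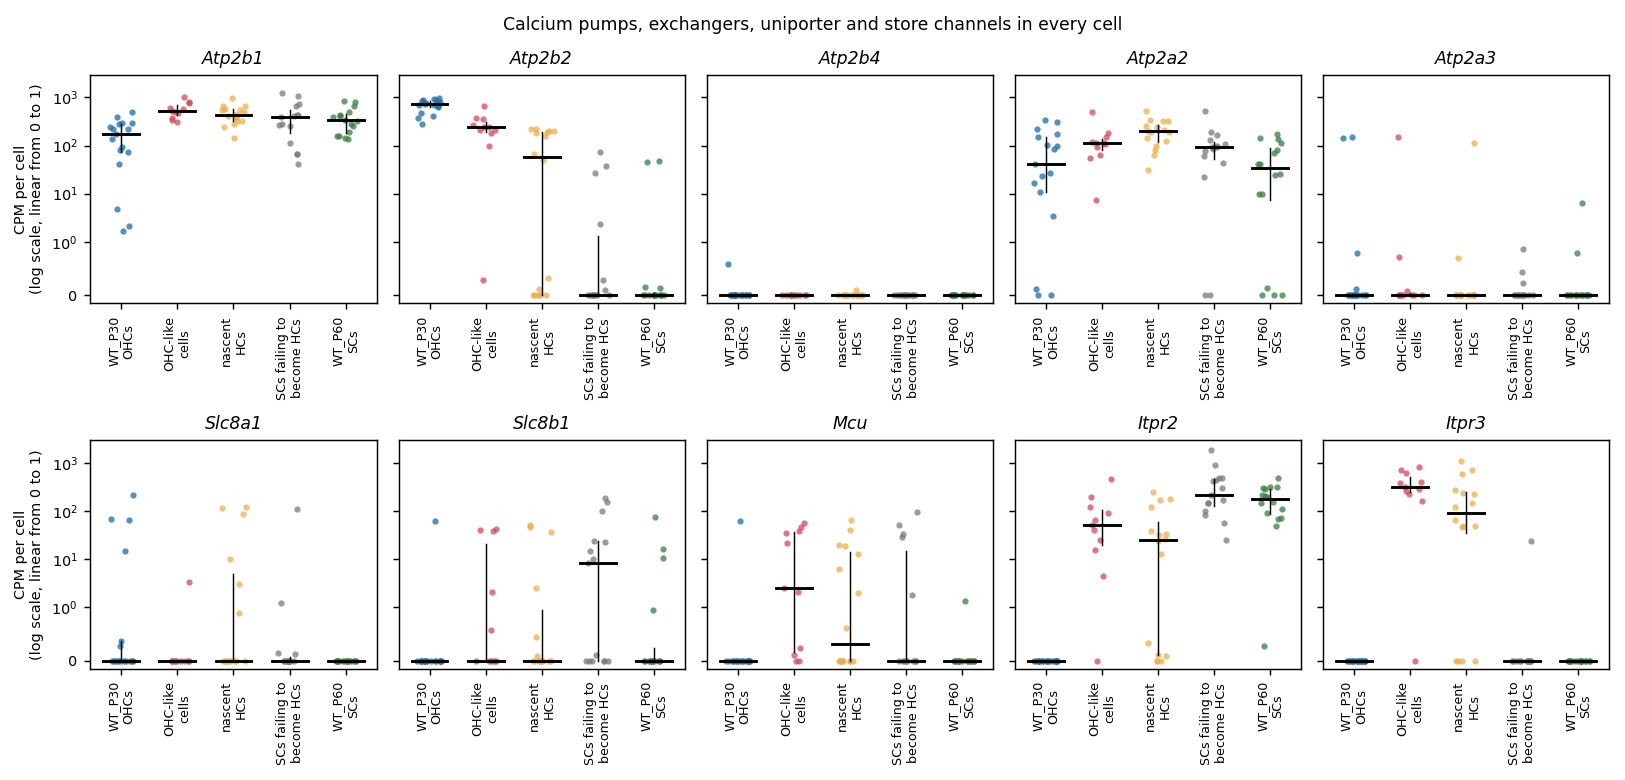
Level of each of the 10 members in each cell, in CPM on an axis that is linear near 0 and logarithmic above, by group. Each point is 1 cell, the black bar is the median and the thin line the interquartile range. Atp2b2 is high in all 17 OHCs and in 10 of 11 OHC-like cells, Itpr3 is at 0 in every OHC and every WT_P60 SC, and Itpr2 is at 0 in every OHC.

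Because exon lengths differ, genes of a family were compared as counts per kilobase, each as a share of its family within a cell. Atp2b2 took a median of 81.7% of PMCA RNA in OHCs (range 69.1% to 99.8%) and was the leading PMCA gene in 17 of 17 cells. In OHC-like cells it took 34.9% (0.0714% to 54.2%) and led in 1 of 11, with Atp2b1 leading in the other 10. In nascent HCs it took 20.0% (0 to 47.9%) and Atp2b1 led in 16 of 16. The shares of OHCs and OHC-like cells did not overlap. In SCs failing to become HCs and in WT_P60 SCs, Atp2b1 led in every cell with a median share of 100%. The summed PMCA level, in CPM per kilobase, had overlapping ranges, with medians of 69.5 in OHCs, 54.4 in OHC-like cells, 33.2 in nascent HCs, 25.8 in SCs failing to become HCs and 22.3 in WT_P60 SCs. OHC-like cells thus stood apart from OHCs in which pump gene led, while the family sums of the 2 groups overlapped.

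Among the reticulum pumps, Atp2a2 (SERCA2) was the common gene of all groups. It was detected in 14 of 17 OHCs, 11 of 11 OHC-like cells, 16 of 16 nascent HCs, 13 of 15 SCs failing to become HCs and 12 of 16 WT_P60 SCs. Medians were 41.6, 114, 198, 93.5 and 33.9 CPM in that order, the highest cell held 527 CPM, and ranges overlapped throughout. The ratio of nascent HCs to WT_P60 SCs was 3.86 and lay near the limit, since leaving out any 1 of 7 cells (SC 2, 3, 9 or 12, nascent HC 3, 10 or 14) carried it to between 4.02 and 4.51. The other 6 comparisons gave 1.21-fold to 2.52-fold, and the smallest of them, OHC-like cells above SCs failing to become HCs, became 1.12-fold below without OHC-like cell 6.

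Atp2a3 (SERCA3) was rare: it was detected in 3 of 17 OHCs, 1 of 11 OHC-like cells, 1 of 16 nascent HCs, 0 of 15 SCs failing to become HCs and 1 of 16 WT_P60 SCs. OHC 10 held 146 CPM, OHC 15 held 152 CPM, OHC-like cell 7 held 149 CPM and nascent HC 12 held 112 CPM. The group ratios therefore followed single cells. OHCs stood 38.5-fold above WT_P60 SCs (21.0 without OHC 10, 20.1 without OHC 15 and 334 without SC 7). OHC-like cells stood 29.8-fold above WT_P60 SCs, but 5.72-fold below them without OHC-like cell 7 and 258-fold above without SC 7. Nascent HCs stood 15.5-fold above, but 9.93-fold below without nascent HC 12 and 134-fold above without SC 7. OHC-like cells stood 1.29-fold below OHCs, and 220-fold below them without OHC-like cell 7. Against nascent HCs they stood 1.92-fold above, 88.5-fold below without OHC-like cell 7 and 295-fold above without nascent HC 12.

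Slc8a1 encodes NCX1, which trades calcium for sodium at the cell surface. WT_P60 SCs had no count of it in 16 cells (exact 95% interval of the detected share up to 20.6%). It was detected in 4 of 17 OHCs, up to 213 CPM in OHC 9, in 6 of 16 nascent HCs, up to 123 CPM, in 1 of 11 OHC-like cells at 3.32 CPM and in 1 of 15 SCs failing to become HCs at 112 CPM. With WT_P60 SCs set to a floor of 3 counts per library, mean levels were in OHCs at least 51.3-fold higher (at least 22.5 without OHC 9), and in nascent HCs likewise at least 51.3-fold higher (at least 34.9 without nascent HC 14). A few cells carried these means, since the median was 0 in every group and no step in the order exceeded the spread. The OHC-like mean was 70.6-fold below that of OHCs (31.0 without OHC 9) and 70.7-fold below that of nascent HCs (48.1 without nascent HC 14), while the OHC-like cell was the higher one, with ties split evenly, in 36.4% and 35.2% of pairs. The ratio of SCs failing to become HCs to WT_P60 SCs, at least 18.1, rested on cell 15 of the former, without which no ratio could be given. OHC-like cells stood 25.0-fold below SCs failing to become HCs, but 2.88-fold above them without that same cell.

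Slc8b1, the gene of the mitochondrial exchanger NCLX that lets calcium out of mitochondria, was detected most often in SCs failing to become HCs. There 8 of 15 cells had it, with a median of 8.12 CPM and a highest value of 181 CPM, against 1 of 17 OHCs, 4 of 11 OHC-like cells, 4 of 16 nascent HCs and 3 of 16 WT_P60 SCs. The mean of SCs failing to become HCs was 5.25-fold that of WT_P60 SCs. It was 18.3-fold without SC 7, and it dropped under the limit to 3.96 or 3.62 without cell 3 or cell 5 of the SCs failing to become HCs.

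Mcu, the pore of the mitochondrial uniporter, was sparse in the endogenous cells and more frequent in the 42 induced cells. It was detected in 1 of 17 OHCs (62.6 CPM) and in 1 of 16 WT_P60 SCs (1.32 CPM), and neither mean reached 5 CPM. By contrast, 7 of 11 OHC-like cells, 7 of 16 nascent HCs plus 5 of 15 SCs failing to become HCs had it, at up to 56.5, 65.5 and 94.4 CPM. Detection of Mcu in induced cells differed between library runs, as given below. The level in WT_P60 SCs came from 9 counts in SC 1. Against it the ratios were 222 for OHC-like cells, 124 for nascent HCs and 167 for SCs failing to become HCs, and without SC 1 they were at least 44.2, 24.8 and 33.3. Without nascent HC 15 the second was 79.9, and without cell 6 of the SCs failing to become HCs the third was 97.1. OHC-like cells stood 4.97-fold above OHCs (at least 42.9 without OHC 2), a ratio that dropped under the limit to 3.93 without OHC-like cell 9.

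The store channels gave the sharpest split. Itpr2, the gene of the type 2 IP3 receptor, had 0 counts in all 17 OHCs, which allows a detected share of up to 19.5% (exact binomial 95% interval, counting error only). It was detected in 15 of 16 WT_P60 SCs, from 0.272 through a median of 175 to 487 CPM, and in 15 of 15 SCs failing to become HCs, from 24.5 through 216 to 1801 CPM. OHC-like cells had an intermediate level, from 0 through 50.3 to 468 CPM with 10 of 11 cells detected, and nascent HCs ran from 0 through 25.0 to 242 CPM with 10 of 16 detected. OHCs and WT_P60 SCs did not overlap, and with OHCs at the floor the OHC mean was at least 435-fold lower. OHC-like cells were at least 227-fold higher than OHCs, and at least 141-fold without OHC-like cell 4, which held 468 CPM and had 3348 detected genes, the lowest number in its group. They stood 1.91-fold below WT_P60 SCs, and 3.09-fold below without that same cell. A pair of ratios lay just under the 4-fold limit: OHC-like cells were 3.93-fold below SCs failing to become HCs, a value that leaving out any 1 of 11 cells (OHC-like cells 1, 4 or 6, or cells 3, 6, 7, 8, 9, 10, 13 or 14 of the other group) carried to between 4.01 and 6.34, and nascent HCs were 3.42-fold below WT_P60 SCs (4.01 without nascent HC 14 and 4.44 without nascent HC 16).

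Itpr3, the gene of the type 3 receptor, had no count in either endogenous group: 0 counts were found in 17 OHCs and in 16 WT_P60 SCs, with exact upper limits of 19.5% and 20.6% for the detected share. OHC-like cells ran from 0 through a median of 319 to 812 CPM, and 10 of 11 had it. The exception was OHC-like cell 1, which held no Itpr3 and 0.289 CPM of Atp2b2, while the other 10 held 157 to 812 CPM of Itpr3 and 99.8 to 655 CPM of Atp2b2. OHC-like cell 1 was the only cell of its group in its library run. It also had the lowest Myo7a (52.5 CPM) and the lowest OHC marker sum (1140 CPM) of the group. The part of these in its values was not tested. Nascent HCs ran from 0 through 92.3 to 1111 CPM, and 12 of 16 had it. SCs failing to become HCs had it in 1 of 15 cells, at 23.3 CPM. The mean of 378 CPM in OHC-like cells was at least 911-fold that of WT_P60 SCs and at least 883-fold that of OHCs at the floor. Nascent HCs, with a mean of 226 CPM, stood at least 544-fold above WT_P60 SCs, and OHC-like cells were 1.67-fold above nascent HCs. OHC-like cells stood 244-fold above SCs failing to become HCs, at least 882-fold without cell 1 of the latter, the only one with Itpr3. Of neighbours in the order of medians, nascent HCs differed from SCs failing to become HCs beyond their spread, with a lower quartile of 34.4 CPM in the former and an upper quartile of 0 CPM in the latter. Detection of Itpr3 in nascent HCs differed between library runs, as given below.

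As shares of IP3 receptor RNA per kilobase, Itpr3 took a median of 89.8% in OHC-like cells and led in 10 of 11, and it took 77.9% in nascent HCs and led in 11 of 16. In SCs failing to become HCs Itpr2 took 83.8% and led in 14 of 15. In WT_P60 SCs the family was split between Itpr1 (median 57.0%, leading in 9 of 16 cells) and Itpr2 (43.0%, leading in 7). Of the 17 OHCs, 15 had no count of any IP3 receptor gene and the other 2 had Itpr1 alone. The summed IP3 receptor level in CPM per kilobase had a median of 0 in OHCs, 44.1 in OHC-like cells, 19.0 in nascent HCs, 18.8 in SCs failing to become HCs and 25.6 in WT_P60 SCs. The OHC range (0 to 3.75) did not overlap that of OHC-like cells (23.6 to 122).

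**Figure D2:**
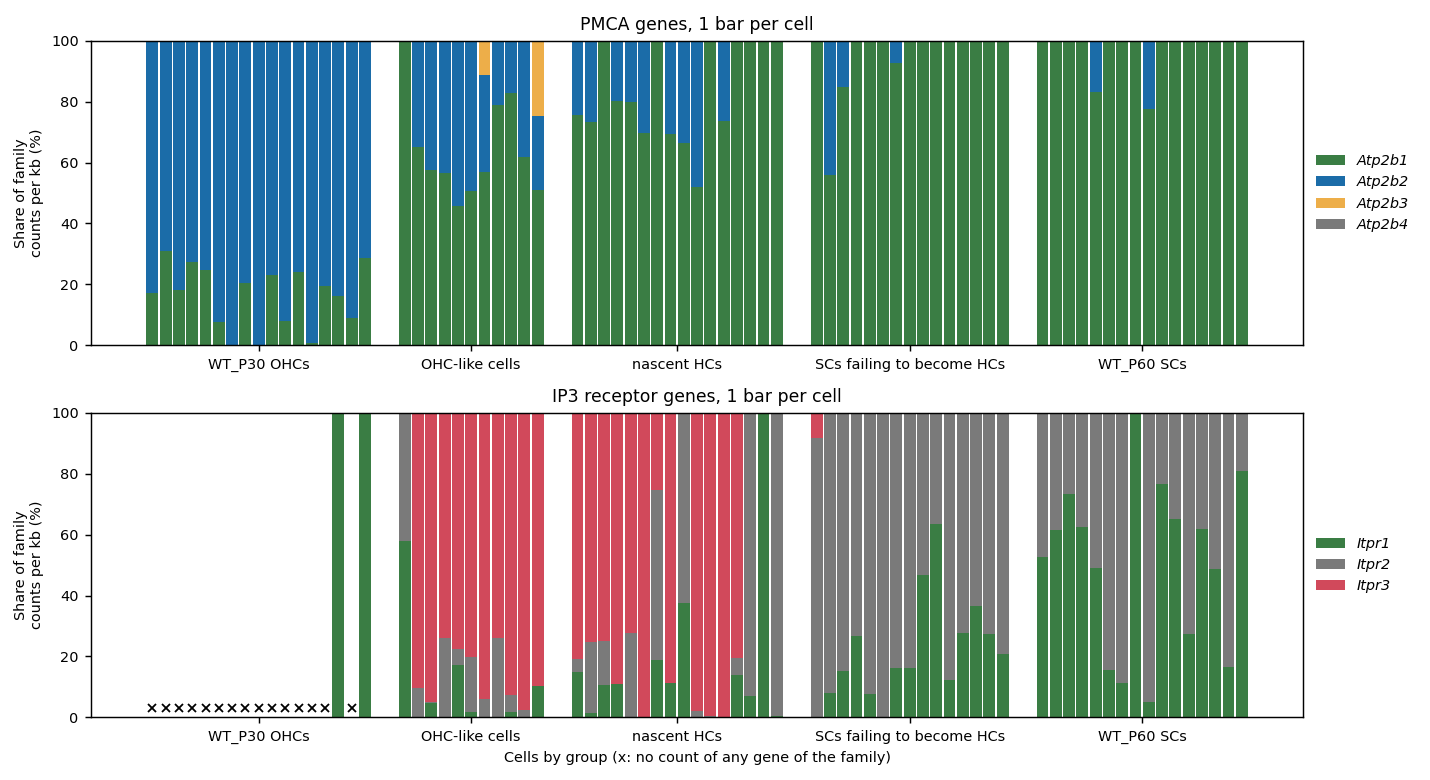
Share of each gene in the RNA of its family in every cell, in percent of counts per kilobase, for PMCA and IP3 receptor genes by group. A cross marks a cell with no count of the family, as for IP3 receptors in 15 of 17 OHCs, and Atp2b2 leads PMCA in all 17 OHCs but in 1 of 11 OHC-like cells.

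Members were also counted together in single cells. At 10 CPM or more, Itpr2 and Itpr3 were both present in 8 of 11 OHC-like cells and 7 of 16 nascent HCs, in 1 of 15 SCs failing to become HCs and in no OHC or WT_P60 SC. Atp2b2 and Itpr3 were both present in 10 of 11 OHC-like cells, with neither in the other one. In nascent HCs 8 of 16 cells had both, 4 had Itpr3 alone, 1 had Atp2b2 alone and 3 had neither. In OHCs, by contrast, Atp2b2 came without Itpr3 in 17 of 17 cells.

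Members past the limit were counted for each comparison, a gene being past 4-fold where the higher group mean was also at least 5 CPM. In WT_P30 OHCs against WT_P60 SCs, 3 members were higher (Atp2b2, Atp2a3 and Slc8a1) and 1 was lower (Itpr2), where 34.7% of 14187 genes tested were past 4-fold in either direction. Atp2b2 and Itpr2, 2 of the 9 members tested, had no overlap between cells, against 2.42% of all genes tested. Because the members were chosen with earlier results of these data known, no excess is read from these 2. In OHC-like cells against WT_P60 SCs 4 were higher (Atp2b2, Atp2a3, Mcu and Itpr3) and 0 lower (background 30.4%), and 0 members lacked overlap (background 1.44%). In nascent HCs against WT_P60 SCs 5 were higher, the same 4 and Slc8a1, and 0 lower (background 27.2%), and in SCs failing to become HCs 3 were higher (Slc8a1, Slc8b1 and Mcu) and 0 lower (background 24.8%). These 4 comparisons share the 16 WT_P60 SCs.

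OHC-like cells against OHCs gave 3 higher (Mcu, Itpr2 and Itpr3) and 1 lower (Slc8a1), with a background of 33.0%. Against SCs failing to become HCs they gave 3 higher (Atp2b2, Atp2a3 and Itpr3) and 1 lower (Slc8a1), with a background of 25.0%, and the calls of Atp2a3 and Slc8a1 each rested on 1 cell. Without OHC-like cell 7 and without cell 15 of the SCs failing to become HCs, respectively, those calls ended. Against nascent HCs they gave 0 higher and 1 lower (Slc8a1), with a background of 10.3%. These counts of 1 to 5 of the 9 members tested were close to or somewhat above the backgrounds, and nothing is read from so few genes. The median log2 ratio of the members with a ratio, bounds included, was 3.02 in OHCs, 3.11 in OHC-like cells, 3.95 in nascent HCs and 1.05 in SCs failing to become HCs against WT_P60 SCs, beside -0.20, 0.40, 0.37 and 0.35 over all genes tested. For OHC-like cells it was 1.63 against OHCs, 0.41 against SCs failing to become HCs and 0.74 against nascent HCs, beside 0.68, 0.05 and 0.03. The members were chosen with earlier results of these data known, so nothing is read from these medians either. Single cells also carried some of them. The 3.95 was the ratio of Atp2a3, which turned to 9.93-fold below without nascent HC 12. The background medians shifted with the scaling of libraries, and for OHC-like cells against OHCs that median was 0.33 with unscaled library sizes and 0.51 with DESeq2 size factors.

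**Figure D3:**
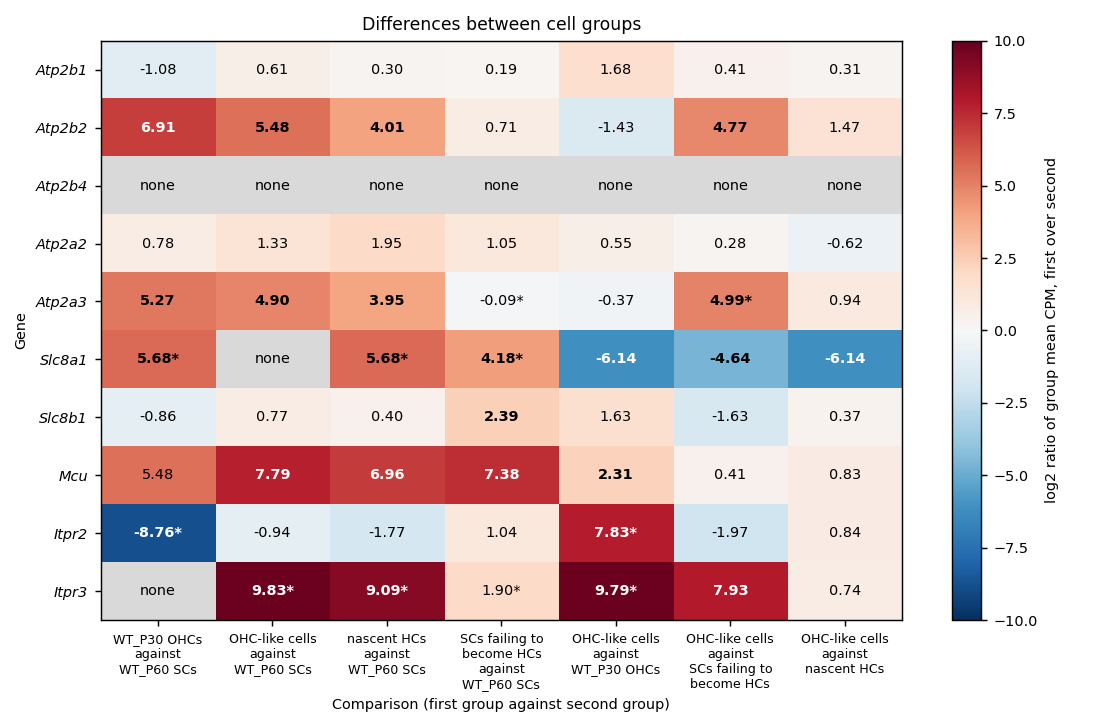
Log2 ratio of group mean CPM for each member in the 7 comparisons. Bold values are past 4-fold, a star marks a ratio in which one group was set to the floor of 3 counts per library, and none means that no ratio was given. Atp2b2 and Itpr3 are high in OHC-like cells and nascent HCs against WT_P60 SCs, and Itpr2 is low in OHCs.

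Some of these groups shared library runs, as read from the library codes in the labels, and values within a run could be set side by side. OHC-like cells and nascent HCs shared 4 runs. Mean Atp2b2 was higher in OHC-like cells in each of them, at 349 against 109 CPM (5 and 6 cells), 215 against 103 CPM (3 and 4 cells), 228 against 49.3 CPM (2 and 4 cells) and 0.289 against 0 CPM (1 cell each). Mean Itpr3 had no fixed order within runs: it was 467 against 223 CPM in the first, 392 against 524 CPM in the second, 326 against 16.1 CPM in the third and 0 against 120 CPM in the last. SCs failing to become HCs shared 2 runs with OHC-like cells. In the run with 2 and 1 cells Itpr3 was 326 against 0 CPM and Itpr2 was 7.57 against 482 CPM, and in the run with 1 and 4 cells Itpr3 was 0 against 5.83 CPM and Itpr2 was 195 against 806 CPM. Atp2b2 was 228 against 0.097 CPM in the former run and 0.289 against 28.1 CPM in the latter, so its order turned. Itpr2 was thus lower in OHC-like cells in both shared runs, whereas the Itpr3 difference rested within runs on 2 OHC-like cells. Among nascent HCs, Itpr3 was detected in 6 of 6, 4 of 4 and 1 of 1 cells of some runs, but in 1 of 4 and 0 of 1 cells of others. The run with that last cell also held 10 of the 15 SCs failing to become HCs, and 0 of those 10 had Itpr3. The part of the run in the Itpr3 values was not tested. Slc8a1 in the induced cells was found mostly in the run that held 2 OHC-like cells, 4 nascent HCs and 1 of the SCs failing to become HCs. There 4 of 4 nascent HCs had it, at 0.882 to 123 CPM, as did that 1 cell, at 112 CPM, and neither OHC-like cell did. In other runs it was detected in 1 of 6 and in 1 of 4 nascent HCs and in 1 of 5 OHC-like cells. The part of the run in the Slc8a1 values was not tested. WT_P30 OHCs and WT_P60 SCs shared no run with any other group.

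For each member past 4-fold in OHCs against WT_P60 SCs, the genes with the most similar pattern were found by Pearson's r of log2(CPM + 1) over the 75 cells, which are not independent samples and differ in depth and group. Atp2b2 was most like Lhfpl5 (r = 0.88), Strc (0.85) and Dner (0.83). Itpr2 was most like Tmsb10 (0.82), Cmtm8 (0.78) and Cd9 (0.77). The sparse Atp2a3 (Gpr182, 0.69, Eme1, 0.62, and Gm43948, 0.61) and Slc8a1 (Calr4, 0.63, Mslnl, 0.56, and Ssbp2, 0.54) gave lower values, which in genes detected in few cells rest on those cells.

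The other calcium genes comprised pumps and pump partners, exchangers, mitochondrial uptake, store release, store entry, store buffers and enzymes of IP3 production, 47 genes of which 37 were high enough to compare. In OHCs against WT_P60 SCs 5 were past 4-fold higher and 7 lower. These were 13.5% and 18.9% of the genes compared, beside 14.9% and 19.8% of all genes tested. In OHC-like cells against WT_P60 SCs there were 8 and 5 (21.6% and 13.5%, beside 18.9% and 11.5%). Against the same SCs, nascent HCs gave 8 and 3 (21.6% and 8.11%, beside 16.8% and 10.4%). SCs failing to become HCs gave 6 and 1 against them (16.2% and 2.7%, beside 16.3% and 8.5%). In OHC-like cells against OHCs 11 were higher and 1 lower (29.7% and 2.7%, beside 22.6% and 10.3%). Against SCs failing to become HCs, OHC-like cells gave 5 and 2 (13.5% and 5.41%, beside 12.3% and 12.7%). Against nascent HCs they gave 4 and 2 (10.8% and 5.41%, beside 5.16% and 5.15%). Nothing is read from these counts.

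Store release genes outside the members followed the cell groups in different ways. Itpr1, the type 1 IP3 receptor, was detected in 16 of 16 WT_P60 SCs (mean 231 CPM), 13 of 15 SCs failing to become HCs (112 CPM), 11 of 16 nascent HCs (31.7 CPM), 6 of 11 OHC-like cells (53.9 CPM) and 2 of 17 OHCs (6.73 CPM). Without OHC-like cell 1 the OHC-like mean was 26.1 CPM, below that of nascent HCs, and the OHC mean was 2.86 CPM without OHC 17 and 4.29 CPM without OHC 15. Of the ryanodine receptors, the other class of store release channel, Ryr2 was detected in 10 of 17 OHCs (mean 19.0 CPM), in 0 of 11 OHC-like cells, 0 of 16 nascent HCs and 0 of 16 WT_P60 SCs, and in 1 of 15 SCs failing to become HCs. Ryr1 was detected in 8 of 17 OHCs (45.1 CPM), 3 of 11 OHC-like cells (17.9 CPM) and 1 of 16 WT_P60 SCs (2.04 CPM), and in no other cell. Its mean in OHC-like cells was 5.28 CPM without OHC-like cell 11, and in WT_P60 SCs 0.00907 CPM without SC 4. Ryr3, which the naming rule did not select, was detected in 2 of 17 OHCs (2.46 CPM), 2 of 11 OHC-like cells (11.0 CPM), 4 of 16 nascent HCs (4.69 CPM) and 2 of 16 WT_P60 SCs (3.75 CPM), so it did not follow Ryr1 and Ryr2. Tmco1, a channel that releases calcium from overfilled stores, was detected in 16 of 16 WT_P60 SCs (208 CPM), 15 of 15 SCs failing to become HCs (70.5 CPM), 9 of 11 OHC-like cells (21.8 CPM), 6 of 16 nascent HCs (13.6 CPM) and 5 of 17 OHCs (17.9 CPM). The OHC mean was 8.67 CPM without OHC 2, and the nascent HC mean 8.56 CPM without nascent HC 14.

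Upstream of the IP3 receptors, Plcb3, a phospholipase that makes IP3, was detected in 11 of 11 OHC-like cells (mean 173 CPM), 14 of 16 nascent HCs (113 CPM), 7 of 15 SCs failing to become HCs (50.7 CPM), 10 of 16 WT_P60 SCs (62.1 CPM) and 4 of 17 OHCs (15.1 CPM). The mean of SCs failing to become HCs was 29.1 CPM without its cell 4. Of the exchangers, Slc8a2 (NCX2) was detected in 15 of 17 OHCs (39.2 CPM) and 9 of 11 OHC-like cells (26.9 CPM), against 6 of 16 nascent HCs (3.26 CPM), 1 of 15 SCs failing to become HCs (1.08 CPM) and 3 of 16 WT_P60 SCs (2.09 CPM). The OHC-like mean was 12.6 CPM without OHC-like cell 7, which put OHC-like cells 3.87-fold above nascent HCs rather than 8.26-fold, and the WT_P60 SC mean was 0.392 CPM without SC 7. Without cell 6 of the SCs failing to become HCs, their mean was 0.037 CPM. The sodium/calcium/potassium exchanger gene Slc24a2 was detected only in induced cells, in 3 of 11 OHC-like cells, 2 of 16 nascent HCs plus 2 of 15 SCs failing to become HCs.

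Of the pumps, Atp2c1, the calcium and manganese pump of the Golgi, was detected in 10 of 11 OHC-like cells (mean 88.8 CPM), 15 of 16 nascent HCs (137 CPM), 13 of 15 SCs failing to become HCs (95.2 CPM), 10 of 16 WT_P60 SCs (32.6 CPM) and 3 of 17 OHCs (7.72 CPM). The OHC mean was 3.96 CPM without OHC 9 and 4.5 CPM without OHC 15. Its relative Atp2c2 was detected in 7 of 11 OHC-like cells (23.7 CPM), 10 of 16 nascent HCs (12.8 CPM), 4 of 15 SCs failing to become HCs (9.22 CPM) and 2 of 17 OHCs (1.36 CPM), and in 0 of 16 WT_P60 SCs. Single cells moved these means: 10.7 CPM without OHC-like cell 6, 4.03 CPM without cell 3 of the SCs failing to become HCs, and in OHCs 0.595 CPM without OHC 3 and 0.852 CPM without OHC 16. Atp2b3 (PMCA3) reached 1 CPM in 2 of 11 OHC-like cells and in no other cell. Orai2, a pore of store-operated entry, was detected in 6 of 17 OHCs, 7 of 11 OHC-like cells, 9 of 16 nascent HCs plus 3 of 15 SCs failing to become HCs, and in 0 of 16 WT_P60 SCs. Mcub, a subunit that lowers uniporter activity, was detected in 3 of 17 OHCs (10.6 CPM) and in 1 cell each of OHC-like cells, SCs failing to become HCs and WT_P60 SCs. Its OHC mean was 5.17 CPM without OHC 3 and 6.13 CPM without OHC 6.

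**Figure D4:**
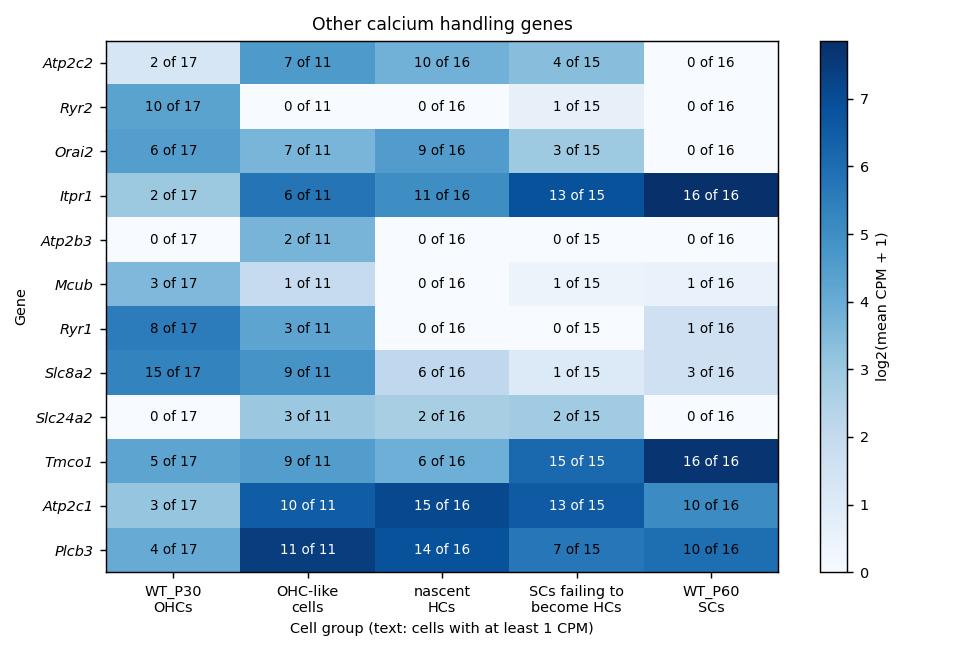
Mean level of the 12 named other calcium genes in each group, as log2(mean CPM + 1) in colour, with the number of cells at 1 CPM or more as text. Itpr1 and Tmco1 are detected in all 16 WT_P60 SCs, Ryr2 in 10 of 17 OHCs and in no OHC-like cell, and Plcb3 in all 11 OHC-like cells.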

How the data were processed

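Full-length cDNA was made from 75 hand-picked Tdtomato+ cells with the Smart-Seq HT kit, and libraries were tagmented. Per the submitters' processing notes and the study's methods, the authors used FastQC 0.11.9 and Trimmomatic 0.39, aligned reads to GRCm38 with HISAT2 2.1.0 and deposited raw counts per gene from HTSeq 0.10.0, while StringTie 1.3.5 gave levels not used here. The strand setting is not given in the sources used here. A transgene row (WPRE, 0.0254% of counts) was left out, which left 55291 genes.

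Library sizes were scaled by TMM (edgeR 4.0.16, R 4.3.3), and group means of CPM were compared in Python 3.11.15 (pandas 2.3.3, scipy 1.17.1). DESeq2 1.42.0 gave alternative size factors. Detection meant at least 1 CPM of the unscaled library. A gene was tested with a mean of at least 5 CPM in some group and was past the limit at 4-fold with the higher mean at least 5 CPM. A group in which no cell exceeded 3 counts was set to 3 counts per library. Intervals are exact (Clopper-Pearson or Poisson, 95%), and they and the floor cover counting error only, since reads without molecular identifiers are not independent molecules. Cells are not replicates and no animal is named for them, so each of the 5 groups was 1 sample and no test was run. The fold rule was run on simulated counts of genes with a mean of at least 5 CPM in WT_P60 SCs. No extra zeros were added there, so that check does not cover sparse members such as Atp2a3, Slc8a1, Slc8b1 and Mcu.

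The members and gene lists were chosen with earlier results of these data known. The text names all members, at most 12 other calcium genes by the size of their ratio in OHCs against SCs or OHC-like cells against either, and the 3 genes most like each member past 4-fold in OHCs against SCs. Alternatives were other scalings, group summaries, thinning of all cells to 4264780 counts, other limits and leaving out each cell in turn. Cells are numbered by their replicate number within a group.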

Additional observations from a re-analysis of the deposited data

How the results depend on the processing

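No paired analysis was possible because the values come from no test, and no source used here names the animal of a cell or gives a number that pairs cells across groups. Of 514 recomputed values 483 stayed within the limits set for them, 31 moved and 0 reversed. That 0 does not cover single ratios with 1 cell left out, some of which changed direction. Without OHC-like cell 7, Atp2a3 in OHC-like cells against WT_P60 SCs went from 29.8-fold above to 5.72-fold below. Without cell 15 of the SCs failing to become HCs, Slc8a1 in OHC-like cells against that group went from 25.0-fold below to 2.88-fold above. The counts of members past 4-fold were unchanged to within 1.5 times under library sizes without scaling, DESeq2 size factors, summed counts, thinned counts and no minimum on the mean, and without OHC-like cell 4 where it enters. With the median over cells, which is 0 for genes found in a minority of cells, the count was 2 rather than 4 in OHCs against WT_P60 SCs, in OHC-like cells against WT_P60 SCs and in OHC-like cells against OHCs, and 1 rather than 3 in SCs failing to become HCs against WT_P60 SCs. With the mean of log2(CPM + 1) it was 2 in OHCs against WT_P60 SCs, 0 in SCs failing to become HCs against WT_P60 SCs and 2 rather than 1 in OHC-like cells against nascent HCs. At a fold of 2 it was 5, 7 and 2 in SCs failing to become HCs against WT_P60 SCs, OHC-like cells against OHCs and OHC-like cells against nascent HCs. Leaving out each cell in turn gave 4 to 5 in OHCs, 3 to 5 in OHC-like cells, 4 to 7 in nascent HCs and 2 to 3 in SCs failing to become HCs against WT_P60 SCs, and, for OHC-like cells, 3 to 5 against OHCs, 3 to 5 against SCs failing to become HCs and 1 to 2 against nascent HCs. Within shared library runs the counts were 6 against SCs failing to become HCs and 1 against nascent HCs. Of 50 pairs of member and group, 21 had the gene in at least 50% of the cells, against 19 at 10 CPM, 22 at any count and 21 in thinned counts. The leading gene of each family in each group was the same, 15 of 15, with counts not divided by length. Over all genes tested in OHCs against WT_P60 SCs, higher genes made up 42.9% of those past 4-fold, but 20.5% with medians and 22.2% with mean logs. In OHC-like cells against OHCs that share was 68.6%, 90.3% with medians and 89.4% with mean logs, against SCs failing to become HCs 49.1%, 72.7% and 74.8%, and in SCs failing to become HCs against WT_P60 SCs 65.7%, 53.6% and 53.2%.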
